A study of Mus musculus with 151 samples.

Results

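Induced outer hair cells (iOHCs) are cells of the mouse cochlea that started as inner hair cells (IHCs) and were then exposed to a Cre recombinase that removes Tbx2, the gene of a T-box transcription factor. The 46 P14_iOHCs were compared here with the 55 P14_WT IHCs, and the count table holds 151 picked cells in all. Genes were included if 10 or more of these cells had 5 or more counts, which kept 13673 of the 55291 genes listed. The cells of both groups compared came from C57BL/6 mice at postnatal day 14 and carried vGlut3-P2A-iCreER/+, which places a tamoxifen-dependent Cre at the Slc17a8 locus. They also carried the Tdtomato reporter Ai9/+. The remaining 50 of the 151 picked cells are P30_WT IHCs from postnatal day 30, and they are used below only where named. The iOHC donors also carried Tbx2 flox/-, that is, a germline null allele beside an allele with exon 2 between loxP sites, whereas the IHC donors had no altered Tbx2 allele. Tamoxifen was given at P2 and P3. In the mutants only the smaller Tdtomato+ cells were picked and the larger ones were left, so that the P14_iOHCs were selected by a visible trait and do not represent all recombined cells. The number of mice is not given in the sources used here, and the labels do not tie a cell to a mouse. Each group was therefore treated as 1 sample, no p-value was computed, and the spread quoted is the spread between cells.

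IHCs and outer hair cells (OHCs) are the mechanosensory cells of the organ of Corti. IHCs pass sound information to the auditory nerve: they load vesicles with glutamate through vGlut3, the product of Slc17a8, and release them at ribbon synapses with the calcium sensor otoferlin, the product of Otof. OHCs amplify the vibration instead, by means of prestin, the voltage-driven motor protein encoded by Slc26a5, and they receive cholinergic input from the brain through nicotinic receptors. Oncomodulin, encoded by Ocm, is an abundant calcium buffer of OHCs, and Ikzf2 encodes helios, a transcription factor known for its role in OHC maturation.

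Cells held 4326416 to 22622030 counts in the IHC group and 6059570 to 22963196 in the iOHC group. Levels are given as CPM, the counts of a gene per 1000000 counts of the cell, and group CPM is the same ratio for counts summed over the cells of a group. The limit that a count of 0 allows was 3 counts, or 0.133 to 0.693 CPM in an IHC and 0.131 to 0.495 CPM in an iOHC. The number of detected genes varied more among the iOHCs, from 6508 to 13262, than among the IHCs, from 7396 to 10153. The reads carry no molecular identifiers, so that all intervals below, which are exact 95% Poisson or binomial intervals, cover counting error only.

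Tbx2 (GRCm38 chr11:85832551-85841948) was examined first as the targeted gene. Tbx2 ranged from 49.5 to 754 CPM in the IHCs (median 240.3) and from 0 to 427 CPM in the iOHCs (median 41.4). Of the 46 iOHCs, 27 lay below the lowest IHC, 1 of them at 0, and the other 19 overlapped the IHCs. Its summed level was 247 group CPM in the IHCs and 66.5 in the iOHCs, 3.72-fold lower and thus short of the 4-fold threshold used below, which it passed in 3 of 11 other settings. A count for the whole gene also includes transcripts without exon 2, so that loss of the floxed exon was not measured per cell.

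The labels were checked against marker genes of the cell types that a picked cell could hold. Of 18 general hair cell genes, 1 was called higher and 1 lower, with a median log2 ratio of -0.11 (their sums by cell are given further on), where called means a group CPM ratio over 4 in either direction. Of 12 IHC markers, 10 were called lower and none higher (median log2 ratio -2.91). Of 14 tested OHC markers, 9 were called higher and 1 lower (median 2.93). Supporting cells, the glia-like neighbours of hair cells, were also examined: 13 of 20 tested markers were called higher in the iOHCs and 1 lower. Their summed level was 3803 to 9338 CPM in the IHCs and 2287 to 20559 CPM in the iOHCs. Fbxo2, which was detected in every cell of both groups, made up the larger part of this sum in every IHC and in all but 7 iOHCs, and without it the sums were 0 to 2199 and 0 to 10930 CPM. Prox1 was at 0 in every cell, and Fgfr3, Hes5, Sparcl1 and Agr3 did not pass the count filter. Among 4 tested glial genes all 4 were called higher, with a summed level over the 9 listed glial genes of 0 to 77.2 CPM in the IHCs and 0 to 465 CPM in the iOHCs. Sox10 is in both the supporting cell and the glial list. None of 4 neuronal and none of 4 blood genes was called. Of 5 mesenchymal genes 1 was called higher, and the summed level reached 4594 CPM in 1 iOHC against 913 CPM at most in an IHC. Of 2 tested immune genes 1 was called higher and 1 lower, and the 1 tested endothelial gene was called lower. Of 21 genes of the response to dissociation, 6 were called higher and 1 lower (median 1.53, or 0.55 without the 13 iOHCs described further on).

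Across all tested genes, 1212 were called higher in the P14_iOHCs, which is 8.86% of 13673, and 705 were called lower, which is 5.16%. The median log2 ratio over all of them was 0.09. At the limit, Mroh1 was just inside with a ratio of 4.0012 and Tspan15 just outside with 3.9986. The study itself had drawn up 151 OHC genes and 389 IHC genes from cells at P30, the P30_WT IHCs of this table among them, so that these lists are not independent of the direction. Of the 142 OHC genes tested, 91 were called higher and none lower, and of the 382 IHC genes tested, 116 were called lower and 21 higher. The plot of group CPM shows both sets of called genes on either side of the diagonal.

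**Figure D1:**
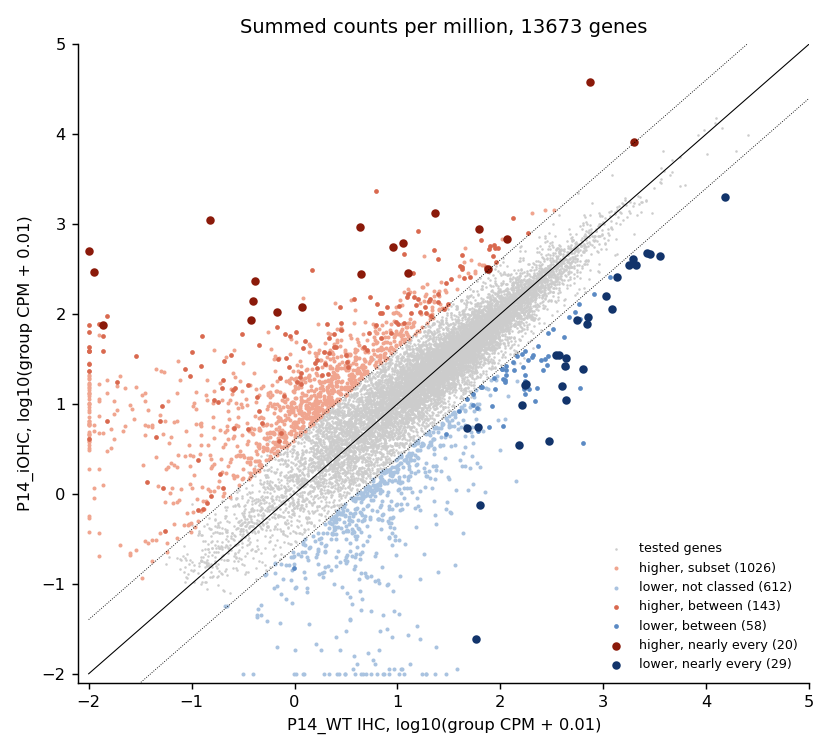
Group CPM of each of the 13673 tested genes in P14_WT IHCs (horizontal) and P14_iOHCs (vertical), both as log10(CPM + 0.01), with dotted lines at a ratio of 4. Dark points are the genes beyond the IHCs in at least 90% of the iOHCs (20 higher, 29 lower), and the pale red points above the dotted line are the 1026 higher genes beyond the IHCs in a subset of cells.

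A group ratio does not say how many cells carry it, so each called gene was then followed cell by cell. For a higher gene, an iOHC was counted as beyond the IHCs if it had more than 3 counts and more CPM than the 95th percentile of the 55 IHCs. For a lower gene it had to lie under the 5th percentile of the IHCs. Genes with at least 90% of the 46 iOHCs beyond this limit are called nearly-every-cell genes, those with 10% to under 50% subset genes, and those from 50% to under 90% intermediate (between in the plots). Of the 1212 higher genes, 20 (1.65%) belonged to nearly every cell, 143 were intermediate, 1026 (84.7%) belonged to a subset and 23 to under 10% of the cells. The class of a higher gene also depends on its detection, since an iOHC with 3 or fewer counts cannot be beyond the limit. The median subset gene was detected in 39.1% of the iOHCs. A low level and a restriction to some cells are thus not told apart by this class. Of the 705 lower genes, 612 could not be classed because more than 5% of the IHCs had no count, and the remaining 93 divided into 29 in nearly every cell, 58 intermediate, 4 in a subset and 2 in fewer cells. The 2 directions are therefore not measured alike: counted the other way, as IHCs above the 95th percentile of the iOHCs, a choice made after the values were seen, 24 lower genes belonged to nearly every IHC and 545 to a subset of the IHCs. The histograms of the share of iOHCs beyond the limit lean in opposite directions for the higher and for the classed lower genes.

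**Figure D2:**
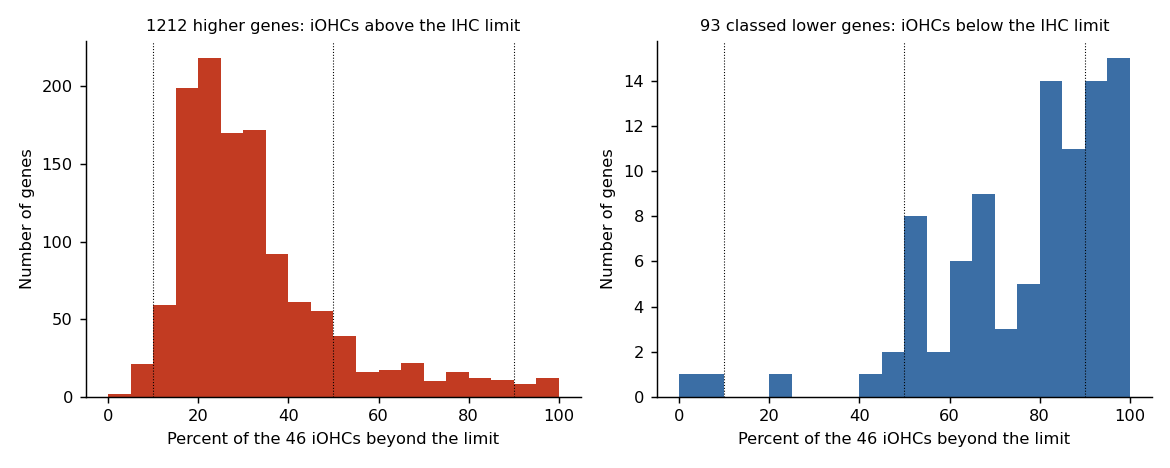
Number of called genes (vertical) by the percent of the 46 P14_iOHCs beyond the IHC limit (horizontal), for 1212 higher genes on the left and the 93 classed lower genes on the right, with dotted lines at 10%, 50% and 90%. Most higher genes lie between 10% and 50%, while 29 of the classed lower genes lie at 90% or above.

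The 20 higher genes of nearly every cell comprised the motor protein, transcription factors, calcium-binding proteins, a nicotinic receptor subunit and several genes of little known function. Slc26a5 (GRCm38 chr5:21810655-21865604) separated the groups completely. Slc26a5 ranged from 0 to 4.01 CPM in the IHCs (median 0) and from 142 to 2787 CPM in the iOHCs (median 1033). No iOHC overlapped the IHCs, and the ratio of group CPM was 7891-fold (95% counting interval 6552 to 9592). Among transcriptional regulators, Ikzf2 (GRCm38 chr1:69531214-69687245) had 1 count in all 55 IHCs together. In the iOHCs it had 208182 counts, at 0 to 1866 CPM with a median of 262. With 1 count in the IHCs the ratio is poorly bounded, with a 95% counting interval of 41694 to 9175601. The iOHC without any Ikzf2 count was the cell labelled 18. Lbh, which encodes a transcription cofactor, was 213-fold higher. Lbh ranged from 0 to 51.1 CPM in the IHCs (median 0) and from 0.280 to 2301 CPM in the iOHCs (median 810), and 45 iOHCs lay above every IHC. Six2, a homeobox factor known from kidney progenitors, was 63.9-fold higher with 44 of 46 iOHCs beyond the limit and medians of 0 and 256 CPM.

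Calcium-binding proteins of the EF-hand family formed the next group. Ocm ranged from 0 to 5007 CPM in the IHCs (median 229) and from 614 to 74981 CPM in the iOHCs (median 40702). Ocm was thus present in most IHCs at a widely scattered level, and 45 of 46 iOHCs stood above the highest of them, for a 50.6-fold ratio of group CPM. S100a1, a small EF-hand protein, had medians of 1712 CPM in the IHCs and 7039 CPM in the iOHCs and was 4.18-fold higher, close to the threshold. Its ratio was below 4 with either other scaling, without the 13 iOHCs described further on and without the cells that were far from their group in detected genes. Efhd2, another EF-hand protein, was 14.5-fold higher, at 0 to 252 CPM in the IHCs and 71.6 to 2409 CPM in the iOHCs. Aqp11, of the aquaporin family, was the other gene for which every iOHC lay above every IHC. Aqp11 ranged from 0 to 206 CPM in the IHCs (median 2.12) and from 242 to 2968 CPM in the iOHCs (median 1280.2), and the ratio was 57.5-fold. Chrna10, a subunit of the nicotinic receptor through which efferent fibres act on hair cells, was 22.5-fold higher, with 33 of 46 iOHCs above the highest IHC.

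Hsd11b1, the enzyme that regenerates active glucocorticoid inside cells, had no count in any IHC. Against the limit of 3 counts over the group its level in the iOHCs, 495 group CPM, was at least 130602-fold higher. Values in the iOHCs ran from 0 to 1465 CPM, with 2 cells at 0. Cachd1, related to the auxiliary subunits of calcium channels, had 3 counts over all IHCs and a median of 49.2 CPM in the iOHCs, where 42 cells were beyond the limit. The 95% counting interval of its ratio was 6856 to 97169.9. Olfm1, a secreted olfactomedin protein, was 54.9-fold higher and Ldhb, a lactate dehydrogenase subunit, 5.79-fold higher. Among genes with little known function in hair cells, Lrrc30 was 582-fold higher, 4930558C23Rik 362-fold, Phldb1 232-fold, Fam57b 159-fold and Tmem229a 61.2-fold. In each of these 5 genes the median IHC had no count, and 43 or 44 of the 46 iOHCs were beyond the limit. Gm8730 is annotated as a processed pseudogene, and reads of a near-identical parent gene could have been split with it, so that its 102-fold ratio is uncertain. Zcchc17, named here to complete the class, encodes a zinc-finger protein and was 4.11-fold higher. Of the 20 genes, 16 are OHC genes of the study's lists and 1, Gm8730, is an IHC gene of them. These lists hold 142 and 382 of the 13673 tested genes.

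**Figure D3:**
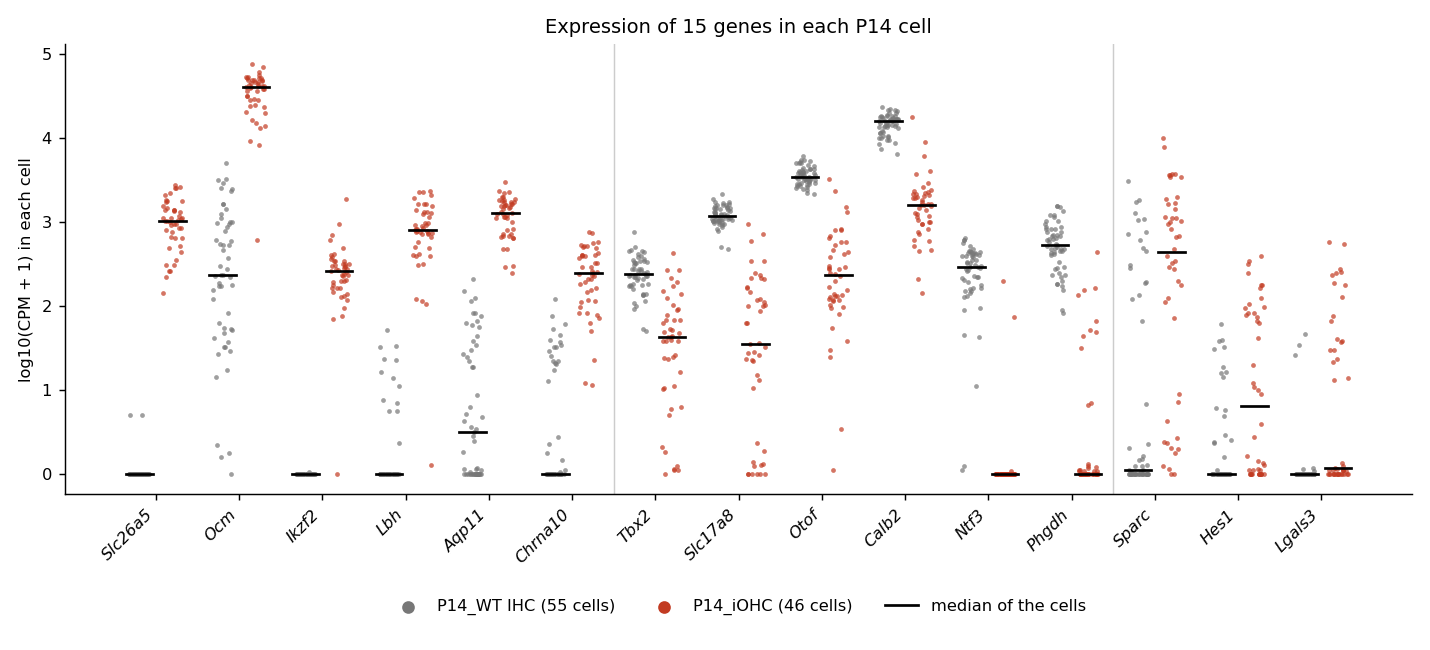
Level of 15 genes as log10(CPM + 1) in each of the 55 P14_WT IHCs (grey) and 46 P14_iOHCs (red), with black bars at the medians of the cells. The first 6 genes are higher in nearly every iOHC, and Tbx2 and the 5 genes after it are lower. Sparc, Hes1 and Lgals3 are above the IHC limit in 13, 18 and 20 of the 46 iOHCs.

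Promoters are shown for Slc26a5, 1 of the 2 genes for which every iOHC lay above every IHC, and for 2 higher genes whose promoter holds the T-box half-site AGGTGTGA on either strand. The sequences run from 250 bases before to 50 after the RefSeq start site, 5′ to 3′ on the strand of the gene, in GRCm38.p6, and capitals mark the half-site, which reads as its reverse complement TCACACCT in Tmem229a and as AGGTGTGA in Strc.
Slc26a5, chr5:21865555-21865854, minus strand: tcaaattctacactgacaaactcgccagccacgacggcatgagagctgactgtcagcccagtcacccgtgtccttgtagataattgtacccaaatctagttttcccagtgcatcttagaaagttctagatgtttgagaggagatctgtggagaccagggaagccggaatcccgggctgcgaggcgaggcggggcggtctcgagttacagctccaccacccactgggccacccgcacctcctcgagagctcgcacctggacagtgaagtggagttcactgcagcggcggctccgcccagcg
Tmem229a, chr6:24956076-24956375, minus strand: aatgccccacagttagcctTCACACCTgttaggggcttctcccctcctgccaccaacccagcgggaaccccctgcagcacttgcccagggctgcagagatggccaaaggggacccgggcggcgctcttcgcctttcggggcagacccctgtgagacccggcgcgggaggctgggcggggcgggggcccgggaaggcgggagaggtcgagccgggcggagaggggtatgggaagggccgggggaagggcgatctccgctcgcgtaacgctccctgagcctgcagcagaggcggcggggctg
Strc, chr2:121380891-121381190, minus strand: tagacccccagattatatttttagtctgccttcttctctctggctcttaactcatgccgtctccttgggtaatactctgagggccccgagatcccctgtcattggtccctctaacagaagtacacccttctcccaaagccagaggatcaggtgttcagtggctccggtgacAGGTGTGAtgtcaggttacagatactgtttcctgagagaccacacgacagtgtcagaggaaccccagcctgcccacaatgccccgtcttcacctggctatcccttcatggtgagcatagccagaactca
Counted from the start site, the half-site begins at position -231 in Tmem229a and at -79 in Strc, which encodes stereocilin. Slc26a5 does not hold these letters in this window. Among the 18 higher genes of nearly every cell with a promoter in the table, Tmem229a was the only one to hold the half-site, and among 24 such lower genes none did. Over all 32851 promoters of this length, 419 held it, or 1.28%. The share over the whole set of called genes is void, since a promoter was matched for only 66.4% of the higher and 58.7% of the lower genes, as of 70.7% of all tested genes. Among those matched, the half-site was in 12 of 805 higher, 2 of 414 lower and 95 of 9661 tested genes (0.983%), and nothing is read from these counts.

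The 29 lower genes of nearly every cell included 4 of the 31 tested genes of the ribbon synapse and of glutamate release, Slc17a8, Otof, Dnm1 and Dnajc5b. Slc17a8 ranged from 469.6 to 2138 CPM in the IHCs (median 1191) and from 0 to 935 CPM in the iOHCs (median 34.6). Only 3 of the 46 iOHCs reached the range of the IHCs for Slc17a8 (GRCm38 chr10:89574020-89621253), and group CPM was 10.7-fold lower (95% counting interval 10.6 to 10.8). Otof ranged from 2168 to 6115 CPM in the IHCs (median 3469) and from 0.104 to 3235 CPM in the iOHCs (median 232). Otof was 8.10-fold lower, and 44 of the 46 iOHCs lay below every IHC. Dnm1, the dynamin that pinches off endocytic vesicles, was 7.74-fold lower and Dnajc5b, a relative of the vesicle chaperone cysteine string protein, 8.91-fold lower. Grm4, a metabotropic glutamate receptor, had 10 counts in all iOHCs and 45404 in the IHCs. Its level in the IHCs ran from 0 to 317 CPM with a median of 50.2, and the highest iOHC had 0.345 CPM.

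The lists of calcium-binding proteins and of calcium pumps and exchangers, used further on, gave 3 genes of this class. Calb2 ranged from 6371 to 23069.6 CPM in the IHCs (median 15753) and from 142 to 17827 CPM in the iOHCs (median 1598). Calb2, which encodes calretinin, was 7.58-fold lower although no iOHC was at 0, and 44 of 46 iOHCs lay under the lowest IHC. Atp2a3, a calcium pump of the endoplasmic reticulum, was 5.14-fold lower, with medians of 1760 and 297 CPM. Slc24a3, a sodium, calcium and potassium exchanger, was 10.6-fold lower, with medians of 367 and 5.03 CPM. These 3 genes therefore differed in what was left in the iOHCs, from nearly nothing in many cells for Slc24a3 to a clear residual level in all cells for Calb2 and Atp2a3.

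Ntf3, which encodes neurotrophin 3, a survival factor for the neurons that contact hair cells, belonged to the same class. Ntf3 ranged from 0.115 to 640.1 CPM in the IHCs (median 293) and from 0 to 199 CPM in the iOHCs (median 0). The lowest IHC had 0.115 CPM, but 44 of 46 iOHCs were under it, and the group ratio was 76.7-fold. Phgdh, the first enzyme of serine synthesis, was 25.9-fold lower and was at 0 in 25 of the 46 iOHCs, while its lowest IHC had 80.4 CPM. Slc7a14, of the amino acid transporter family, was 25.3-fold lower and at 0 in 39 iOHCs. Myl4, a myosin light chain, was 39.4-fold lower, Rps6ka2, a ribosomal S6 kinase, 16-fold lower, and Mrps6, a protein of the mitochondrial ribosome, 13.5-fold lower. Mrps6 kept the groups apart in all but 1 cell: 45 iOHCs were below the lowest IHC. Smaller genes of this class by level in the IHCs were Cd96, an immunoglobulin-family receptor best known from lymphocytes (86-fold lower), Nmnat2, an enzyme of NAD synthesis (11.1-fold), Tln2, which encodes talin 2 (10.8-fold), Ano4, of the anoctamin family (16.5-fold), Marchf4, a ubiquitin ligase (10.8-fold), and Tpbgl (43-fold). The remaining 9 genes of the class lay between log2 ratios of -3.30 and -2.24. Of the 29 genes, 23 are IHC genes of the study's list, which holds 382 of the 13673 tested genes.

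At P30, the median WT IHC stood within the P14 IHC limit for all 20 higher genes of nearly every cell and was at 0 for 14 of them. For the 29 lower genes it stood at or above the 5th percentile of the P14 IHCs in 26.

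A few iOHCs departed from the rest in these 49 genes. Of the 20 higher genes, an iOHC was beyond the limit for 9 to 20, with a median of 20, and an IHC for 0 to 4. Of the 29 lower genes, an iOHC was beyond the limit for 9 to 29, with a median of 29, and an IHC for 0 to 5. The 4 iOHCs labelled 1, 18, 29 and 44 were beyond it for 9, 25, 15 and 12 of the 29 lower genes, whereas the other 42 iOHCs were beyond it for at least 27. Cell 44 was also beyond it for only 9 of the 20 higher genes and had 427 CPM of Tbx2, 722 of Slc17a8, 3235 of Otof, 142 of Slc26a5 and 614 of Ocm, the lowest Slc26a5 and Ocm values and the highest Tbx2 value of the iOHCs. Cell 1 differed from it: it had 17827 CPM of Calb2 and 2307 of Otof, both within the range of the IHCs, together with 799 CPM of Slc26a5 and 16575 of Ocm, and it was beyond the limit for 19 of the 20 higher genes. Cell 29 combined 8836 CPM of Calb2 with 23598 of Ocm. Cell 18 had no Ikzf2, 935 CPM of Slc17a8, the highest of the iOHCs, and 514 CPM of Slc26a5. Without these 4 cells, a choice made after the values were seen, the class held 29 higher and 40 lower genes, among them all 20 and all 29 of those described above. The 4 cells were picked as those short of the limit for the lower genes. The larger lower class, with all 29 kept, therefore follows largely from the choice.

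The intermediate class of 143 higher genes held 49 OHC genes and 5 IHC genes of the study's lists. It also held 24 pseudogenes, or 16.8%, against 5.98% of all tested genes. Its members among the named genes were distributed over many functions. Bmp3, a ligand of the BMP family, had 4 counts over all IHCs and ranged from 0 to 353 CPM in the iOHCs, with 40 of 46 beyond the limit. Adamtsl1, a secreted ADAMTS-like protein, had 2 counts over all IHCs and a median of 52.7 CPM in the iOHCs, where 35 were beyond the limit (95% counting interval of the ratio 8545 to 254897). Slc7a11, the cystine and glutamate exchanger, was beyond the limit in 38 iOHCs, with a group CPM of 6.45 there. The lower counterpart with the largest ratio was Rprm, an inhibitor of cell cycle progression. Rprm ranged from 0 to 1959 CPM in the IHCs (median 426) and from 0 to 47.4 CPM in the iOHCs (median 0). Rprm was 175-fold lower and was below the limit in 39 iOHCs, and at 0 in the median P30_WT IHC.

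The 1026 subset genes were mostly low: their median group CPM was 1.18 in the IHCs and 11.2 in the iOHCs, and the median gene was detected in 10.9% of IHCs and 39.1% of iOHCs. Only 132 of them reached 50 CPM in the iOHCs, against all 20 genes of nearly every cell. The 1026 included 26 OHC genes and 14 IHC genes of the study's lists and 82 pseudogenes (7.99%, against 5.98% of all tested genes). The 8 with the largest ratios among those of at least 50 CPM are given next. Itih5, which encodes a protein that binds hyaluronan, had 2 counts over the IHCs and up to 804 CPM in the iOHCs, with 16 of 46 beyond the limit and 24 at 0. Lgals1 and Lgals3, which encode galectins, were 54.5-fold and 46.4-fold higher, with 17 and 20 iOHCs beyond the limit and medians of 0.171 and 0.169 CPM in the iOHCs. The highest iOHCs reached 1564 CPM for Lgals1 and 572 CPM for Lgals3. Dpp4, a membrane peptidase, was 29.7-fold higher with 21 iOHCs beyond the limit. Ly6e, a membrane-anchored protein induced by interferon, was 116-fold higher, and Irgm1, an interferon-induced GTPase, 56.9-fold higher, each with 13 iOHCs beyond the limit and a median of 0 in the iOHCs. Without the 13 iOHCs described next, the log2 ratio of Ly6e was 3.55 in place of 6.86 and that of Irgm1 1.94 in place of 5.83, which ended its call. Bglap3, an osteocalcin-related gene, was 128-fold higher, but it has near-identical neighbours in the genome and its reads may be shared with them. Gm13394, a processed pseudogene, was 41-fold higher and is uncertain for the same reason.

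The subset genes were not spread evenly over the iOHCs. An iOHC was beyond the limit for 81 to 661 of the 1026 genes (median 228), and an IHC for 17 to 144 (median 39). The 10 iOHCs with most of them held 42.3% of all 12901 such gene and cell pairs. For the 20 nearly-every-cell genes the share was 22.8% of 876 pairs. That class definition puts nearly all iOHCs beyond the limit, so 10 cells could not hold a larger share. In 13 iOHCs the summed supporting cell markers lay above the highest IHC, at 9338 CPM. These 13 cells are 28.3% of the iOHCs and held 46% of the subset pairs, 30.4% of the pairs of intermediate genes and 28.5% of those of nearly-every-cell genes. The last share is held close to 28.3% by the class definition and is no comparison. For 507 of the 1026 subset genes, or 49.4%, at least 50% of the iOHCs beyond the limit were among these 13. The same was true of 4 of 143 intermediate genes and none of the 20. These lower counts are no comparison, since both classes require many iOHCs beyond the limit. The 13 cells could not make up 50% of them for any of the 20, and rarely for an intermediate gene. Across the 46 iOHCs, the number of subset genes beyond the limit followed the summed supporting cell markers with Spearman's rho 0.821 (Pearson's r 0.83), the sum without Fbxo2 with rho 0.875 (r 0.889), and the number of genes detected after each cell was thinned to 4000000 counts with rho 0.875 (r 0.879). It followed the total count with rho 0.336 (r 0.289). These correlations describe 46 cells, the measures come from the same libraries, and 12 supporting cell markers are themselves subset genes. In the 55 IHCs the same number followed the sum without Fbxo2 with rho 0.706 (r 0.9) and the number of genes detected after thinning with rho 0.208 (r 0.22). Hair cell genes were lower where these markers were high. The summed CPM of the 18 general hair cell genes was 10750.4 to 22329 in the IHCs, 2322 to 11389 in the 13 iOHCs and 5821 to 16183 in the other 33, and 12 of the 13 and 7 of the 33 lay below every IHC. Without Otof, itself called lower, the sums were 7619 to 16214, 2284 to 11295 and 5624 to 15019, with 9 of the 13 and 2 of the 33 below every IHC. The part of supporting cells, or of their RNA, in the subset genes was not tested.

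**Figure D4:**
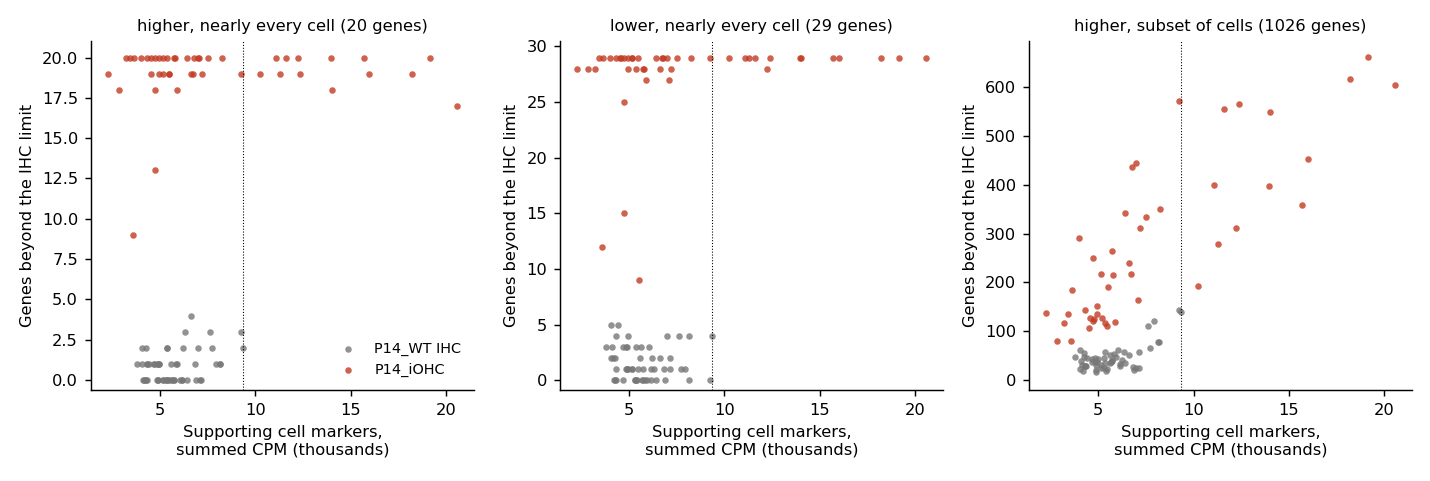
Number of genes beyond the IHC limit in each cell (vertical) against its summed CPM of 25 supporting cell markers (horizontal, in units of 1000 CPM), for the 20 higher and 29 lower nearly-every-cell genes and the 1026 subset genes, with P14_WT IHCs in grey, P14_iOHCs in red and a dotted line at the highest IHC. In the iOHCs the counts of nearly-every-cell genes stay near their maximum at all marker sums except in 4 cells. The class definition holds them there, so they are no comparison for the subset genes. The counts of subset genes reach 661 in cells with high sums, and 12 of the markers are themselves subset genes.

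Supporting cell markers differed among themselves. Gjb2 and Gjb6, the connexins of the cochlear gap junctions, had group CPM of 69.5 and 102 in the IHCs and 352 and 681 in the iOHCs. Slc1a3, a glial glutamate transporter, was at 25.6 group CPM in the IHCs and 179.8 in the iOHCs. Sox9, a transcription factor of supporting cells, was at 6.60 group CPM in the IHCs and 67.9 in the iOHCs, and Sox10, which glia also use, was at 2.56 group CPM in the IHCs and 51.4 in the iOHCs. On the other side, Cyp26b1, which breaks down retinoic acid, was at 4.39 group CPM in the IHCs and 0.368 in the iOHCs and was called lower, while Otos at 6.53 group CPM in the IHCs and 2.47 in the iOHCs and Ednrb, an endothelin receptor, at 13.2 group CPM in the IHCs and 11.5 in the iOHCs were not called. Sparc, a matrix glycoprotein, was 4.36-fold higher, and 11 of the 13 iOHCs beyond its limit were among the 13 with high markers. Without the 13 cells its log2 ratio was 0.43 in place of 2.12. Other subset genes lay mainly outside these cells. For Gstm1, a glutathione transferase, 2 of 16 iOHCs beyond the limit were among the 13, for Mt1, a metallothionein, 3 of 14, and for Pfkfb2, a regulator of glycolysis, 4 of 20. Without the 13 iOHCs, 1003 genes were called higher, 912 of them shared with the 1212, and the subset class held 785 genes, 682 of them shared.

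The 612 lower genes that could not be classed were also mostly low, with a median of 6.92 group CPM in the IHCs and 0.673 in the iOHCs, and the median gene was detected in 34.5% of IHCs and 10.9% of iOHCs. Among them were 51 IHC genes of the study's list. Of the 4 lower genes of the subset class, 3 had at least 50 CPM in the IHCs: Lifr, a cytokine receptor (5.44-fold lower), Crip2, a LIM-domain protein (5.28-fold), and Ogdhl, a mitochondrial dehydrogenase subunit (4.40-fold). For these 3 genes 21, 21 and 10 iOHCs lay below the limit, and the lowest IHC was at 0 for each, so that the ranges of the groups overlapped.

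The called genes were then grouped by function in 29 lists, and each count is to be read against the 8.86% higher and 5.16% lower among all tested genes. Some calls depended on which cells were included. Without the 13 iOHCs with high supporting cell markers, the call was lost among the higher genes named by Irgm1, Tmod1, S100a1, Kcnj16, Kcnj10, P2ry1, Sparc, Col13a1, Jag1, Hey2, Dusp1, Aldoc, Cox4i2, Gpx8, Prdx4, Atf3, Stmn1 and Dclk2, and among the lower ones by Ogdhl, Syt14, Cacna2d2 and Fgf8. Without the 16 iOHCs chosen by markers other than Fbxo2, Bglap3, Epb41l3, Atp2a3, Tectb, Otogl, Cdh1, Hes1, Hey1 and Psme1 lost it as well. In the cells with totals under 11000000 it was lost by Atp2b2, Syt14, Grik5, Xirp2, Ezr, Col13a1, Cdh15, Fgf8, Jag1, Hey2, Mt1, Pfkfb2, Pfkp, Gstm1, Gpx8, Atf3 and Tubb2b, and in those with at least 11000000 by Ogdhl, Stx1a, Sparc, Cdh13 and Cox4i2. In the plot of the lists, 6 medians lie above a log2 ratio of 1 and 1 lies below -1.

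**Figure D5:**
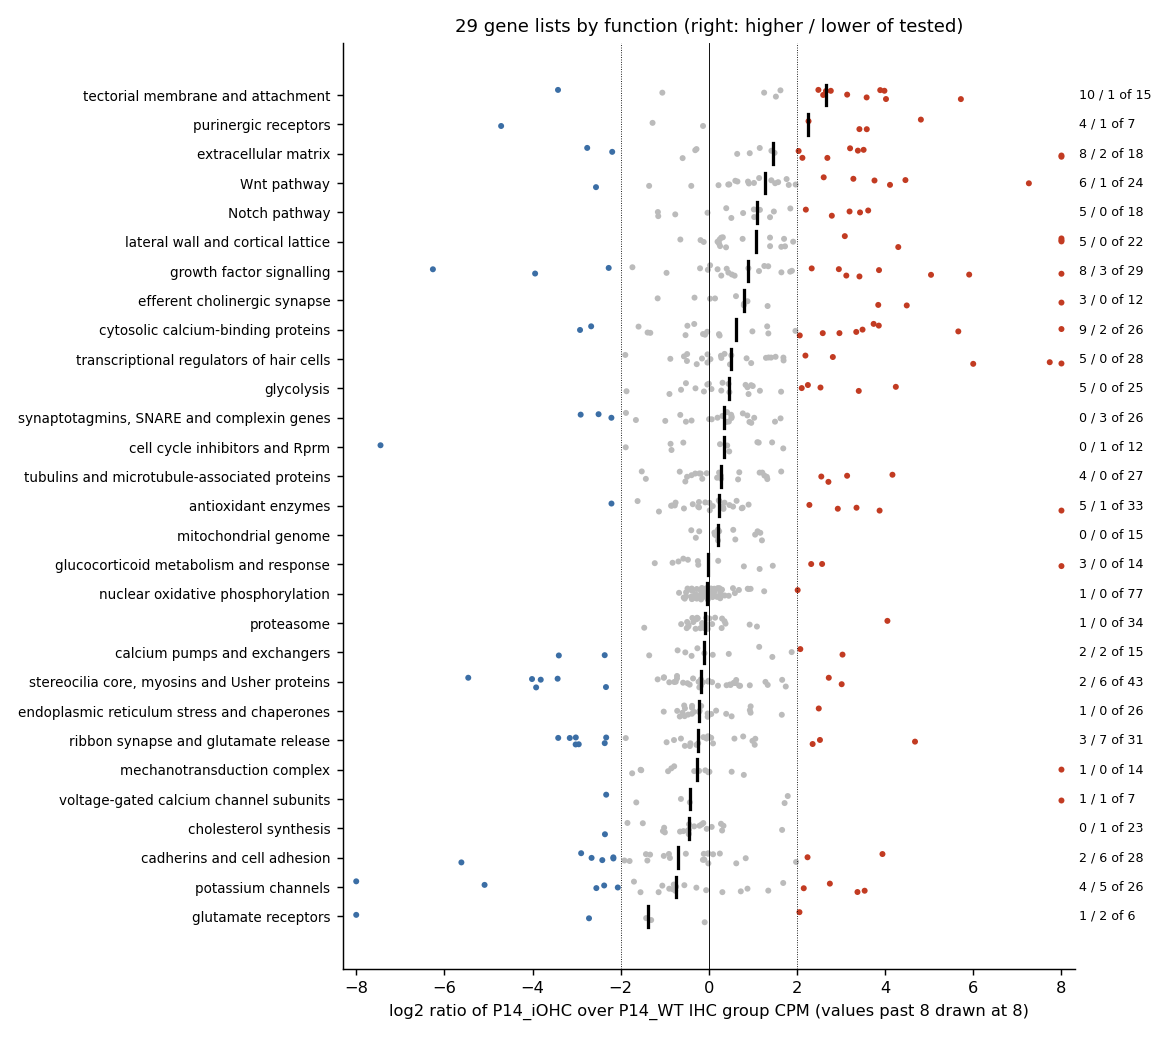
Log2 ratio of P14_iOHC over P14_WT IHC group CPM for the tested members of 29 functional gene lists, 1 point per gene (red above 2, blue below -2, grey between, values past 8 drawn at 8), with black bars at list medians. The numbers at the right give higher / lower of tested members; lists of tectorial membrane and purinergic receptor genes have the highest medians (2.12 and 0.93 without the 13 iOHCs with high supporting cell markers) and glutamate receptors the lowest.

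Among hair cell transcriptional regulators, 5 of 28 tested members were called higher and 0 lower (median log2 ratio 0.49), or 17.9% higher. Beside Ikzf2, Lbh and Six2 these were Id2, an inhibitor of basic helix-loop-helix factors (7.03-fold higher, 35 of 46 iOHCs beyond the limit), and the LIM-homeobox factor Isl1 (4.57-fold, also 35). Rorb, the member with the highest level that was not called, was at 714 group CPM in the IHCs and 389.8 in the iOHCs. For genes of the lateral wall and cortical lattice of OHCs, 5 of 22 tested members were called higher and 0 lower (median log2 ratio 1.08). Slc26a5 belonged to nearly every cell, whereas Tmod1, which caps actin filaments (8.49-fold, log2 ratio 1.49 without the 13 iOHCs), Ank2, ankyrin B (566-fold), and Epb41l3, a protein 4.1 (19.7-fold), belonged to a subset of 19, 11 and 16 iOHCs. Lmod3, which nucleates actin filaments, was at 299 group CPM in the IHCs and 784 in the iOHCs and was not called.

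The bundle and transduction genes were mostly close between the groups. Of a list of transduction complex genes and related hair cell genes, 1 of 14 tested members was called higher and 0 lower (median log2 ratio -0.28). The higher one, Atp8b1, a phospholipid flippase needed by hair cells, was at 0.0910 group CPM in the IHCs and 37.5 in the iOHCs, with 35 of 46 iOHCs beyond the limit. Cib2, a subunit of the transduction complex, was at 4445 group CPM in the IHCs and 3532 in the iOHCs. Of stereocilia genes, 2 of 43 tested members were called higher and 6 lower (median log2 ratio -0.18), or 14.0% lower. Whrn, the Usher protein whirlin, was 15.1-fold lower, Myo3a, a myosin of stereocilia tips, 10.8-fold and Xirp2, an actin-binding repair protein, 5.04-fold, with 38, 38 and 35 of 46 iOHCs below the limit. Ezr, the membrane linker ezrin, was 6.59-fold higher in a subset, and Myo6, found in all hair cells, was at 1553 group CPM in the IHCs and 1109 in the iOHCs.

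Synaptic lists were divided. Of the ribbon synapse and glutamate release list, 3 of 31 tested members were called higher and 7 lower (median log2 ratio -0.24), or 22.6% lower, and 4 of the lower ones, Slc17a8, Otof, Dnm1 and Dnajc5b, were nearly-every-cell genes. Rab3ip, at 318 group CPM in the IHCs and 633 in the iOHCs, was the highest-level member not called. Of synaptotagmins, SNARE and complexin genes, 0 of 26 tested members were called higher and 3 lower (median log2 ratio 0.35): Syt14 was 4.63-fold lower, Syt6 7.51-fold and the syntaxin gene Stx1a 5.66-fold, the last of these at 6.21 group CPM in the IHCs. Syt14 lost the call in 3 of 11 settings, among them that without the 13 iOHCs, and Stx1a in the cells with at least 11000000 counts. Snap91, a clathrin adaptor, was at 772 group CPM in the IHCs and 589 in the iOHCs. For the voltage-gated calcium channels, 1 of 7 tested members was called higher and 1 lower (median log2 ratio -0.43). Cacna1d, the pore-forming subunit of the IHC synapse, was at 447 group CPM in the IHCs and 332 in the iOHCs and not called. Cacna2d2, an auxiliary subunit, was 5.02-fold lower, and Cacng5 had no count in the IHCs and 11.2 group CPM in the iOHCs, at least 2950.4-fold higher, in 18 iOHCs beyond the limit. Of glutamate receptors, 1 of 6 tested members was called higher and 2 lower (median log2 ratio -1.37): beside Grm4, Grin2c, an NMDA receptor subunit, was 6.58-fold lower, and Grik5, a kainate receptor subunit, was 4.16-fold higher. Grik5 lost the call in 7 of 11 settings tried, and Grm2, at 9.48 group CPM in the IHCs and 3.54 in the iOHCs, was not called.

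For calcium-binding proteins, 9 of 26 tested members were called higher and 2 lower (median log2 ratio 0.62), or 34.6% higher. Of the higher members, 6 belonged to a subset of cells, and 5 of those are S100 genes. For the subset S100 genes with at least 50 group CPM in the iOHCs, 50% to 70.6% of the iOHCs beyond the limit were among the 13 with high supporting cell markers. Without these 13 iOHCs, 7 members of the list were called higher and 2 lower, and the median log2 ratio was 0.18. Of calcium pumps and exchangers, 2 of 15 tested members were called higher and 2 lower (median log2 ratio -0.10). Atp2b2, the plasma membrane pump of OHC stereocilia, was 4.21-fold higher, near the threshold, with 37 of 46 iOHCs beyond the limit, and Slc8b1, a mitochondrial exchanger, 8.18-fold higher in a subset. Atp2b1, the related pump, was at 906 group CPM in the IHCs and 355 in the iOHCs.

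Among potassium channels, 4 of 26 tested members were called higher and 5 lower (median log2 ratio -0.75). Kcnj10 and Kcnj16, inward rectifiers that supporting cells and glia also use, were 10.4-fold and 11.6-fold higher, in 16 and 18 iOHCs, and both lost the call without the 13 iOHCs. The leak channel Kcnk3 was 5.86-fold lower. Kcna10, a hair cell channel, was at 1461 group CPM in the IHCs and 994 in the iOHCs and not called. Of the efferent synapse, 3 of 12 tested members were called higher and 0 lower (median log2 ratio 0.80). Chrna10 was joined by Ryr1, a calcium release channel (14.4-fold higher, 36 iOHCs), and Chrnb4, a nicotinic subunit without a count in the IHCs (at least 1903-fold higher, 14 iOHCs). Chrna9, the partner of Chrna10 in the receptor, was present in both groups at 165 group CPM in the IHCs and 417 in the iOHCs and was not called. Of purinergic receptors, 4 of 7 tested members were called higher and 1 lower (median log2 ratio 2.26), or 57.1% higher of only 7. Without the 13 iOHCs 3 higher and 1 lower were called and the median was 0.93. The ATP-gated channels P2rx2 and P2rx4 were 10.7-fold and 12-fold higher and beyond the limit in 29 and 31 of 46 iOHCs. The G protein-coupled receptors P2ry2 (28.1-fold) and P2ry1 (4.80-fold) belonged to a subset, P2ry1 lost the call without the 13 iOHCs, and P2ry14, at 22.7 group CPM in the IHCs and 20.8 in the iOHCs, was not called.

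The largest share of higher genes was in the tectorial membrane and attachment list, in which 10 of 15 tested members were called higher and 1 lower (median log2 ratio 2.66), or 66.7% higher. The lower one was Tecta, which encodes alpha-tectorin and could not be classed by cell. Strc, which encodes stereocilin and holds the half-site printed above, was 6.81-fold higher. Strc ranged from 0 to 222 CPM in the IHCs (median 7.87) and from 7.09 to 578 CPM in the iOHCs (median 132), and 31 of 46 iOHCs were beyond the limit. Ceacam16, a secreted protein of the tectorial membrane, was 52.6-fold higher, at 0 to 242 CPM in the IHCs and 0 to 10279 CPM in the iOHCs. Tectb, which encodes beta-tectorin (12-fold), and Otogl, an otogelin-like glycoprotein (14.8-fold), belonged to a subset, and Tectb is also a supporting cell marker. Stxbp4, which encodes a syntaxin-binding protein, was at 288 group CPM in the IHCs and 139 in the iOHCs. Without the 13 iOHCs, 8 higher and 1 lower were called in this list and its median log2 ratio was 2.12 in place of 2.66. For the extracellular matrix, 8 of 18 tested members were called higher and 2 lower (median log2 ratio 1.46), but without the 13 iOHCs 3 higher and 3 lower were called. Col13a1, a membrane collagen, was 4.10-fold higher and lost the call in 9 of 11 settings tried. Adamts1, a matrix protease, was 6.77-fold lower, and Timp2, a protease inhibitor, was at 50.1 group CPM in the IHCs and 134 in the iOHCs. Of cadherins and adhesion genes, 2 of 28 tested members were called higher and 6 lower (median log2 ratio -0.70), or 21.4% lower. Cntnap2, a neurexin-family protein, was 6.32-fold lower with 32 iOHCs below the limit, the cadherins Cdh15 and Cdh13 were each 4.49-fold lower, and Cdh1, E-cadherin of epithelial cells, was 15.3-fold higher with 17 iOHCs beyond the limit, but its log2 ratio was -0.10 without the 16 iOHCs whose supporting cell markers other than Fbxo2 exceeded every IHC. Nectin2 was at 143 group CPM in the IHCs and 77.7 in the iOHCs.

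Of growth factor signalling, 8 of 29 tested members were called higher and 3 lower (median log2 ratio 0.90), and without the 13 iOHCs 6 higher and 2 lower were called. Bmp3 and Ntf3 were described above. Fgf8, the IHC ligand that acts on pillar cells, was 4.83-fold lower, though not past the threshold without the 13 iOHCs (log2 ratio -1.93). Fgf8 ranged from 0 to 449.9 CPM in the IHCs (median 97.8) and from 0 to 152 CPM in the iOHCs (median 17.2). Ntrk2, a neurotrophin receptor, was 15.4-fold lower, and Igfbp5, which binds insulin-like growth factors, was at 1339 group CPM in the IHCs and 688 in the iOHCs and not called. Of the Notch pathway, 5 of 18 tested members were called higher and 0 lower (median log2 ratio 1.09), with every higher member in a subset. Hes1 and Hey1, target genes of Notch, were 10.8-fold and 12.3-fold higher in 18 and 11 iOHCs, the ligand gene Jag1 4.60-fold and Hey2 6.92-fold. Without the same 16 iOHCs the log2 ratio of Hey2 was -4.59 in place of 2.79. Hes1, Hey1 and Jag1 are supporting cell markers too, and without the 13 iOHCs 2 members were called higher and the median was 0.27 in place of 1.09. Numb, an inhibitor of Notch, was at 53.3 group CPM in the IHCs and 109 in the iOHCs. Of the Wnt pathway, 6 of 24 tested members were called higher and 1 lower (median log2 ratio 1.28). Dkk3, a secreted modulator, was 153-fold higher in 24 of 46 iOHCs, the ligand gene Wnt4 9.71-fold and the secreted inhibitor Frzb 13.5-fold, while the receptor gene Fzd4 was 5.90-fold lower, with 31 iOHCs below the limit. Lrp6, a coreceptor, was at 36.8 group CPM in the IHCs and 55.8 in the iOHCs.

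Of nuclear oxidative phosphorylation genes, 77 were tested and 1 was called, Cox4i2 (4.04-fold higher, at 3.55 group CPM in the iOHCs), for a median log2 ratio of -0.03. Atp5b, of the ATP synthase, was at 1953 group CPM in the IHCs and 1588 in the iOHCs. None of the 15 genes of the mitochondrial genome was called (median 0.21), and mt-Rnr2, its large ribosomal RNA, was at 14108 group CPM in the IHCs and 11499 in the iOHCs. Of glycolytic genes, 5 of 25 tested members were called higher and 0 lower (median log2 ratio 0.47). Ldhb was the nearly-every-cell gene among them, and Pfkfb2 (4.31-fold), the phosphofructokinase Pfkp (10.6-fold) and the aldolase Aldoc (4.75-fold) were subset genes. Gapdh was at 1675 group CPM in the IHCs and 1636 in the iOHCs. For cholesterol synthesis the median log2 ratio over 23 tested members was -0.45, and Hsd17b7 was at 501 group CPM in the IHCs and 524 in the iOHCs. Of glucocorticoid metabolism and response, 3 of 14 tested members were called higher and 0 lower (median log2 ratio -0.01). Beside Hsd11b1 these were Dusp1, an inducible phosphatase (5.00-fold), and Mt1 (5.94-fold), both subset genes. Dusp1 is also a gene of the response to dissociation, and its log2 ratio was 1.32 without the 13 iOHCs. Mt1 lost the call in the cells with totals under 11000000. Fkbp4, a receptor chaperone, was at 403 group CPM in the IHCs and 290.2 in the iOHCs.

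Of antioxidant enzymes, 5 of 33 tested members were called higher and 1 lower (median log2 ratio 0.23), and the higher members included Gstm1 (7.60-fold higher), Gpx8, a peroxidase of the endoplasmic reticulum (10.2-fold), and Prdx4 (4.86-fold), all subset genes. In the absence of the 13 iOHCs 3 higher and 0 lower were called, and Gpx8 and Prdx4 lost the call. Gpx2 was at 3764 group CPM in the IHCs and 6404 in the iOHCs. Of endoplasmic reticulum stress genes, 1 of 26 tested members was called higher and 0 lower (median log2 ratio -0.22), the called gene being Atf3, which is also induced by dissociation (5.63-fold higher, 11 iOHCs), and the chaperone gene Hspa5 was at 1099 group CPM in the IHCs and 869 in the iOHCs. Of the proteasome, 1 of 34 tested members was called higher and 0 lower (median log2 ratio -0.09), the called gene being Psme1, an interferon-induced activator subunit (16.6-fold higher), and Psmd6 was at 843 group CPM in the IHCs and 829 in the iOHCs. Of tubulins and microtubule-associated genes, 4 of 27 tested members were called higher and 0 lower (median log2 ratio 0.28). Stmn1, which destabilises microtubules (6.56-fold), Tubb2b (8.80-fold) and Dclk2 (5.86-fold) were subset genes, and Tuba1c (17.9-fold, 29 iOHCs) was intermediate. With the 13 iOHCs left out 2 higher and 0 lower were called, and Stmn1 and Dclk2 lost the call. The tubulin genes are near-identical in parts, so that reads could be split between Tuba1c and Tuba1a, which was at 426 group CPM in the IHCs and 344 in the iOHCs. Of cell cycle inhibitors, 0 of 12 tested members were called higher and 1 lower (median log2 ratio 0.34), the called gene being Rprm, and Cdkn2d, expressed in postmitotic hair cells, was at 878 group CPM in the IHCs and 488 in the iOHCs.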

How the data were processed

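Single hair cells were picked by hand from P14 cochleae, or from P30 cochleae for the P30_WT IHCs, and amplified with Smart-Seq HT. The deposited values are raw counts per gene, which the authors made from paired-end reads. The submitters' processing notes name FastQC 0.11.9, Trimmomatic 0.39, HISAT2 2.1.0, StringTie 1.3.5 and HTSeq 0.10.0, with the mm10 build. The annotation release, strandedness and the handling of multiply mapped reads are not given in the sources used here.

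Counts of the 55 P14_WT IHCs and 46 P14_iOHCs were summed per group and divided by the summed totals (CPM). Each cell is a library and no animal is named, so each group is 1 sample and no test was run. Genes were kept if 10 or more cells had 5 or more counts, and a gene was called past a ratio of 4. A group without counts was set to the limit of 3 counts. No cells had identical counts. Percentiles, exact intervals and correlations used numpy 2.4.6, pandas 2.3.3 and scipy 1.17.1. The calls from pooled ratios were checked on simulated counts with known folds, but no such check was set for the cell classes. Alternatives used edgeR 4.0.16 and DESeq2 1.42.0 for scaling factors, thinning to 4000000 counts, other filters, limits and subsets of cells. Doublets were not called. Cells were picked singly, but material of an attached neighbour was not tested for.

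Named genes were Tbx2, the 15 largest log2 ratios in each direction among nearly-every-cell genes and the 8 largest among subset genes, each with at least 50 CPM in the higher group, and in each functional list up to 4 called members and 1 uncalled member with the highest CPM. Zcchc17, Tecta and the supporting cell markers Gjb2, Gjb6, Slc1a3, Sox9, Sox10, Cyp26b1, Otos and Ednrb were named after their values were seen. Some genes that the rule selects are not reported here. The members and lists were chosen with earlier results of these data known. Promoters came from RefSeq (GRCm38.p6), and 9661 of 13673 tested genes matched.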

Additional observations from a re-analysis of the deposited data

How the results depend on the processing

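No paired analysis was possible because cell numbers only name cells and no result comes from a test. Without the filter on low counts 5261 genes were called higher and 4044 lower, with at least 10 CPM in a group 711 and 321, and at a ratio over 2 they were 2596 and 1782. In the 16 IHCs and 12 iOHCs with totals under 11000000, 1715 genes were called lower, 38 higher and 44 lower genes belonged to nearly every cell and 9 lower genes to a subset; fewer cells enter this setting by construction. With the highest and lowest IHC as the limit, nearly-every-cell genes numbered 9 higher and 16 lower and lower subset genes 8. Of the settings chosen after seeing the data, leaving out the 4 iOHCs that kept IHC genes gave 7 lower subset genes and the limit taken from the iOHCs 545. Leaving out 16 iOHCs with supporting cell markers other than Fbxo2 above every IHC, also chosen then, reversed Cdh1 (log2 ratio -0.10) and Hey2 (-4.59), and the cause was not tested. The other counts stayed within 1.5 times under the settings tried. Of 120 called genes that the naming rule selects, 75 kept the call in all 11 settings and 45 lost it in some, 23 of them without the 13 iOHCs with high supporting cell markers. Of 40 list medians, 6 changed sign in at least 1 of 3 settings. Counts near the limit of 3 bound what low genes can show.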
